A study of Homo sapiens with 6 samples.

Results

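In total, 10 genes whose products act on nucleotides, phosphate esters or adenosine, at the cell surface or inside the cell, were followed in H1975 cells, an established line of human lung adenocarcinoma with mutant EGFR, before and after Osi (osimertinib), an inhibitor of the EGFR tyrosine kinase. They are the alkaline phosphatases ALPP, ALPG (older symbol ALPPL2) and ALPL, the nucleotide phosphodiesterases and phosphohydrolases ENPP1, ENPP4 and ENTPD3, the 5′-nucleotidase NT5E (CD73), the adenosine-removing enzymes ADA and ADK, and the adenosine receptor ADORA2B. All 10 have a row among the 27216 rows of the table. They were chosen by the fold changes of this same comparison, in which ALPP is among the largest rises and NT5E falls, so their values are a description. No p-value is given for any of them, and the number past the threshold is set beside that of all rows without being read as a result.

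The parental group was 3 samples labelled as Osi for 0 h, in columns named for DMSO, and the adapted group was 3 samples labelled as Osi for 72 h. Both labels give 1000 nM Osi and a WT genotype, and whether the parental cells were untreated or kept in DMSO is not given in the sources used here. Cells that had detached through apoptosis were washed off before RNA was taken, so the adapted samples are of the cells that remained, and Osi and time in culture cannot be told apart. The labels also name an RNase R digestion, which removes linear RNA, while the methods of the study name total RNA without it. The log2 values were read as log2(FPKM + 1), FPKM being fragments scaled for transcript length and for the size of the library. Summed FPKM lay between 375342 and 387753 in the 6 samples. The depth is unknown, so the spread between samples (SD, n = 3 in each group) is the error given. A lower level per cell and a smaller share of cells that hold the transcript cannot be told apart in such bulk samples. Adapted replicate 1 correlated less with the other adapted samples (r = 0.978 and 0.977, across the 12656 rows with a mean log2 value of at least 1) than these did with each other (0.992). All 8 epithelial markers were among those rows, with a summed level of 3770 to 4208 FPKM in adapted and 4032 to 4083 FPKM in parental cells.

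ATP that leaves a cell is cut stepwise at its surface. ENTPD and ENPP enzymes take it towards AMP, and NT5E, a GPI-anchored enzyme, removes the last phosphate to leave adenosine, a step that alkaline phosphatases can also carry out. Adenosine then acts on G protein-coupled receptors such as ADORA2B, or is taken into the cell, where ADA deaminates it to inosine and ADK phosphorylates it to AMP. ALPP (placental), ALPG (germ cell) and ALPI (intestinal) are tissue-restricted alkaline phosphatases encoded side by side, and ALPL is the tissue-nonspecific form known for its part in bone mineralization.

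Of the alkaline phosphatases, ALPP and ALPG were higher and ALPL was lower in adapted cells. ALPP was 1.49, 1.66 and 1.37 in parental replicates 1, 2 and 3 and 5.23, 5.76 and 5.21 in adapted replicates 1, 2 and 3 on the log2(FPKM + 1) scale. The groups did not overlap and adapted replicate 2 was the highest. On the linear scale its level went from 1.85 ± 0.284 to 41.9 ± 9.80 FPKM, a 22.7-fold higher level, with a log2 difference of 3.89 (SE 0.20). That took ALPP from above 58.4% of all rows in parental cells to above 94.3% in adapted cells.

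ALPG was 1.19, 1.17 and 1.13 in the parental samples and 3.38, 3.45 and 3.28 in the adapted samples (log2). Its groups lay apart and its samples were close together within each group. Its level was 1.24 ± 0.0434 FPKM in parental and 9.32 ± 0.609 FPKM in adapted cells, 7.51-fold higher, with a log2 difference of 2.20 (SE 0.05). ALPL moved the other way. Its parental values were 0.82, 0.84 and 0.79 (log2), and its adapted values were 0 in replicate 1, where it is listed at 0, 0.06 in replicate 2 and 0.08 in replicate 3. In FPKM, its parental samples held 0.769, 0.793 and 0.728 and its adapted samples at most 0.0605. ALPI, the intestinal form, was at most 0.07 (log2) in every sample.

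**Figure D1:**
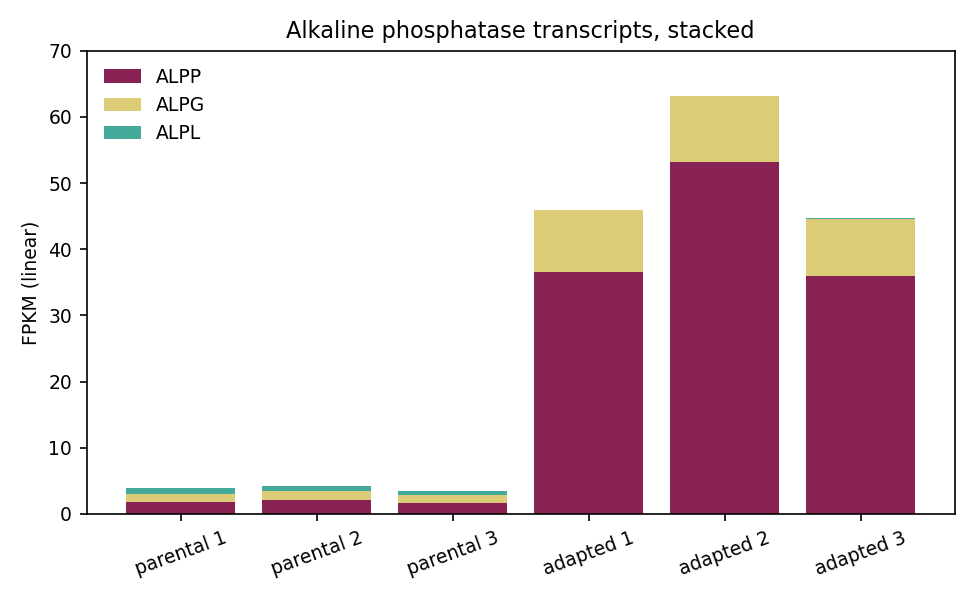
Linear FPKM of ALPP, ALPG and ALPL stacked for each of the 6 samples (bars start at 0, ALPI is too low to show). The 3 adapted samples reach 44.7 to 63.2 FPKM in sum with ALPI, against 3.51 to 4.20 FPKM in the parental samples, and ALPL is visible in the parental bars.

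As a share of the summed FPKM of ALPP, ALPG, ALPL and ALPI, ALPP held 47.8% ± 3.11 in parental and 81.4% ± 2.45 in adapted cells. The share of ALPG was 32.3% ± 2.14 and then 18.5% ± 2.51. ALPL held 18.9 to 20.7% of the parental sum and at most 0.135% of the adapted sum. The ratio of ALPP to ALPG was 1.41, 1.72 and 1.34 in the parental samples and 3.90, 5.38 and 4.14 in the adapted samples, so the listed levels did not scale by the same factor.

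ALPP lies on chromosome 2 from 232378534 to 232382889 and ALPG from 232406843 to 232410714, both on the plus strand (GENCODE v29, GRCh38), with 23954 bases between them. ALPI follows 45409 bases beyond ALPG, and ALPL is on chromosome 1 from 21509372 to 21578412. The longest coding transcripts of ALPP and ALPG are 90.1% identical where they align. Of all stretches of 100 bases in the ALPP transcript, 13.2% also occur in that of ALPG, and 15.8% the other way. For stretches of 50 bases these shares are 24.5% and 29.3%, and for 150 bases 7.1% and 8.5%. Reads from shared stretches can be counted for either gene. The level of ALPG, the size of its rise and its ratio to ALPP are therefore uncertain by an amount that was not measured. No stretch of 100 bases of ALPP occurs in ALPI or ALPL. An antisense gene on the opposite strand, AC068134.1, covers 20.6% of the annotated exon bases of ALPP, and whether reads were counted by strand is not given in the sources used here.

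The RefSeq promoter windows (GRCh38.p14, 250 bases before to 50 after the start, plus strand) of ALPP, ALPG and ALPI are printed here because the first pair belong to the genes that were higher together, while the third belongs to the neighbour that stayed near 0. They span chr2:232378501-232378800, chr2:232406594-232406893 and chr2:232455903-232456202. The windows follow the RefSeq start, which for ALPP lies after the GENCODE start given above. Capitals in the ALPP line mark bases that differ from ALPG, or have no ALPG base opposite them, in a pairwise alignment. Capitals in the other lines mark the same against ALPP.
ALPP: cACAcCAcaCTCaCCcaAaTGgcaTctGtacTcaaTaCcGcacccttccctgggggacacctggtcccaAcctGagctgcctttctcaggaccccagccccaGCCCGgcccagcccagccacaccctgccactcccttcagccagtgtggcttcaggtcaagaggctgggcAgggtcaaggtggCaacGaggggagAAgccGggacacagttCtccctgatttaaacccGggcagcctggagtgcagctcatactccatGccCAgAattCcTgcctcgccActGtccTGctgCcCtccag
ALPG: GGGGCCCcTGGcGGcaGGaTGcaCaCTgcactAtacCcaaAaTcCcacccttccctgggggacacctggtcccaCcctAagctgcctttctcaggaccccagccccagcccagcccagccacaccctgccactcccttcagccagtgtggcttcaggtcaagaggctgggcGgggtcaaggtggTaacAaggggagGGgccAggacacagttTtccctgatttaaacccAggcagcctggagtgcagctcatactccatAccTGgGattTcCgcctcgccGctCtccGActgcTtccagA
ALPI: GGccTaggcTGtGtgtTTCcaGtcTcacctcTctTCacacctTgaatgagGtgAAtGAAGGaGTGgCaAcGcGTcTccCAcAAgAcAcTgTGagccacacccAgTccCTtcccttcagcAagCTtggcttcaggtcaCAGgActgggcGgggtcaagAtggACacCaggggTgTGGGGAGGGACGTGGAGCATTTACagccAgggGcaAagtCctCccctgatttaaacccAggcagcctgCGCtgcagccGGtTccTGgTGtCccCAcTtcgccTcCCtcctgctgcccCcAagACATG
The ALPP and ALPG windows share 254 of 292 aligned bases (87.0%), and the ALPP and ALPI windows share 188 of 265 (70.9%). All 3 hold the letters ATTTAAA just before the start, which were searched for after the sequences were seen and which occur on either strand in 5.5% of 34943 promoter windows of the same length. The ALPP and ALPG windows each hold 6 CpG dinucleotides, against a median of 14 over all windows, and the ALPI window holds 7.

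Among the genes placed beside ALPP on this chromosome, 4 of 10 were expressed highly enough to be tested with limma, and none differed by more than 0.23 on the log2 scale. EIF4E2, a cap-binding protein gene, rose by 0.23 (SE 0.07, limma, adjusted p = 0.0235), a call lost without parental replicate 1, without parental replicate 3 and with the replicate block. TIGD1 (log2 difference -0.02), DIS3L2 (-0.05) and GIGYF2 (-0.06) did not pass the threshold.

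ENPP1, ENTPD3 and ENPP4 were all higher in adapted cells. ENPP1, which makes pyrophosphate from ATP, was 0.12, 0.09 and 0.09 in the parental and 0.78, 0.39 and 0.34 in the adapted samples (log2). All adapted values were above all parental values, and adapted replicate 1 was the highest. Its level was 0.0717 ± 0.0135 FPKM and then 0.431 ± 0.249 FPKM. ENTPD3, which removes phosphates from ATP and ADP, was 0.27, 0.22 and 0.17 and then 0.49, 1.26 and 1.13 (log2), or 0.166 ± 0.0404 and 0.994 ± 0.523 FPKM. Here adapted replicate 1 was the nearest to the parental samples. ENPP4, a membrane phosphodiesterase, was 2.26, 2.18 and 2.11 and then 2.47, 2.80 and 2.62, a log2 difference of 0.45 (SE 0.11) and a level 1.47-fold higher. The groups did not overlap in any of these 3 genes.

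NT5E was the most abundant member in parental cells, above 96.0% of all rows. Its parental values were 5.77, 5.76 and 5.80 and its adapted values 5.06, 4.44 and 4.41 (log2). All adapted samples were lower, and adapted replicate 1 lay between the parental samples and the other two adapted samples. The level went from 53.9 ± 0.768 to 24.4 ± 6.81 FPKM, 2.21-fold lower, with a log2 difference of -1.14 (SE 0.21). NT5E lies on chromosome 6 from 85449584 to 85495791 (plus strand, GENCODE v29). Its promoter window, chr6:85449833-85450132 on the plus strand, follows the RefSeq start. It lies inside this GENCODE interval, as RefSeq places the start further along the gene. The window is shown with its CpG dinucleotides in capitals, for contrast with the CpG-poor ALPP and ALPG windows.
NT5E: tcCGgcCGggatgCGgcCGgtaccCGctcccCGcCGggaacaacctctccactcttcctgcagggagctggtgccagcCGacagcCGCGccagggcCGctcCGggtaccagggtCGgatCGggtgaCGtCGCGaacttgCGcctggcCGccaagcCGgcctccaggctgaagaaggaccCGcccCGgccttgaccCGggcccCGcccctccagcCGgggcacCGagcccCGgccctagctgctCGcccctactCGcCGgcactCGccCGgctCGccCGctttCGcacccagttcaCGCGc
The window holds 37 CpG dinucleotides, more than 88.7% of all windows do, and the letters TGACGTC, the core of a cAMP response element, which occur in 3.4% of windows. Letters of the TEAD core, AP-1, the hypoxia response core, the GC box and the TATA box were searched for as well, on either strand. Of these the window holds the GC box, as do 44.9% of windows. The window of ADORA2B holds 41 CpG dinucleotides, that of ADA 47, that of ENPP1 37 and that of ENTPD3 24. The ADK windows hold 13 and 34, and the ALPL windows hold 11, 42 and 9. The CpG count does not divide the members by direction, as ENPP1 and ENTPD3 were higher in adapted cells while NT5E and ADORA2B were lower.

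ADORA2B, a low-affinity adenosine receptor that raises cAMP, was 3.98, 3.89 and 4.0 in the parental samples and 2.69, 2.31 and 2.22 in the adapted samples (log2). The groups lay apart, again with adapted replicate 1 nearest to the parental samples. The level was 14.5 ± 0.657 and then 4.36 ± 0.971 FPKM, 3.33-fold lower, with a log2 difference of -1.55 (SE 0.15).

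The adenosine-removing enzymes moved less. ADK was 5.26, 5.22 and 5.18 and then 4.89, 5.02 and 4.92 (log2), with no overlap and a level 1.22-fold lower. ADA was 3.85, 3.74 and 3.97 in the parental and 4.17, 3.57 and 3.72 in the adapted samples. It was the only member whose groups overlapped, with adapted replicate 1 above and adapted replicates 2 and 3 below all parental values. Its log2 difference was -0.03 (SE 0.19), and it changed sign without parental replicate 3 (0.03), without adapted replicate 2 (0.09) and without adapted replicate 3 (0.02). ADA shares 1.61% of its annotated exon bases with PKIG and ADK 7.13% with the antisense gene AC022540.1, each on the opposite strand. ADK also shares 5.9% with the processed pseudogene MRPL35P3, on the same strand.

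**Figure D2:**
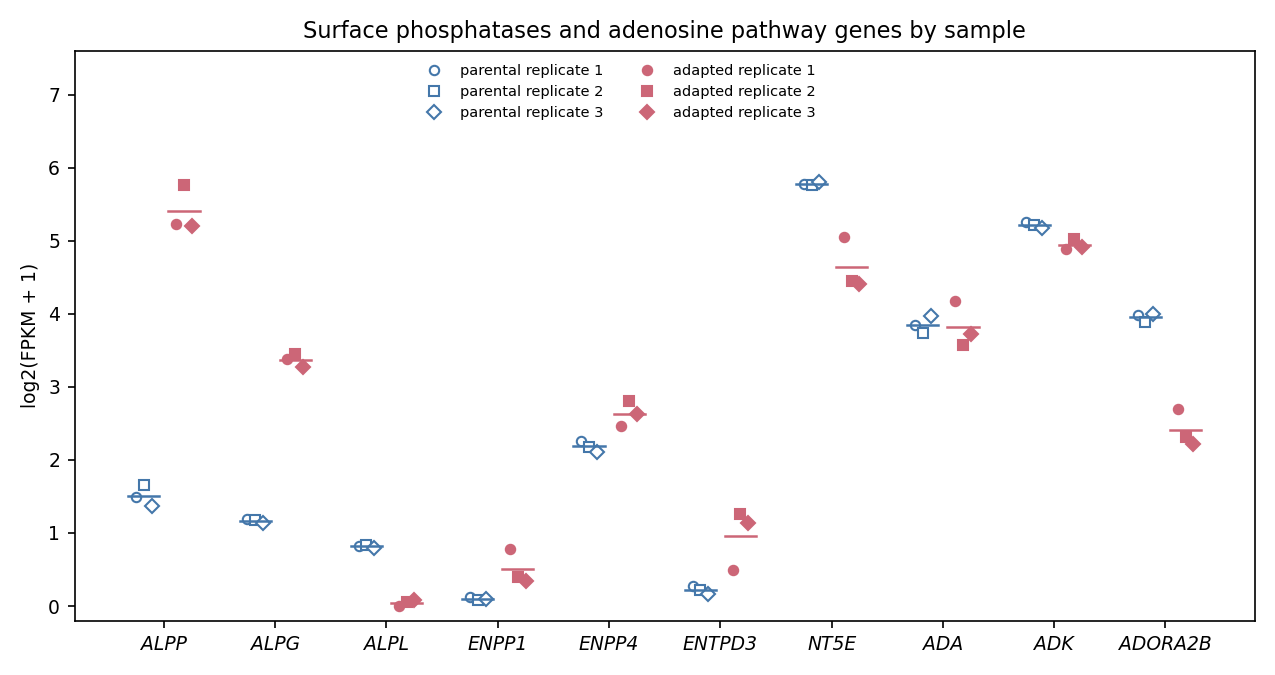
log2(FPKM + 1) of the 10 genes in each sample, with parental samples as open blue and adapted samples as filled red symbols (circle, square and diamond for replicates 1, 2 and 3) and bars at the group means. The adapted samples lie above the parental ones for ALPP, ALPG, ENPP1, ENPP4 and ENTPD3 and below them for ALPL, NT5E, ADK and ADORA2B, and ADA overlaps.

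The levels followed another order in each group. In parental cells the order by mean FPKM was NT5E, ADK (36.2), ADORA2B (14.5), ADA (13.5), ENPP4 (3.55), ALPP, ALPG, ALPL, ENTPD3 and ENPP1, and ADORA2B and ADA overlapped. In adapted cells it was ALPP, ADK (29.8), NT5E, ADA (13.4), ALPG, ENPP4 (5.22), ADORA2B, ENTPD3, ENPP1 and ALPL. There, ADK overlapped with NT5E, ENPP4 with ADORA2B, and ENTPD3 with ENPP1. Adapted replicate 1 was the adapted sample nearest to the parental mean for 4 of the 10 members (NT5E, ADORA2B, ENPP4 and ENTPD3), and for 48.0% of all rows tested. Adapted replicate 3 was the nearest for 5 members (ALPP, ALPG, ALPL, ENPP1 and ADA), and for 27.0% of all rows tested. For ADK it was adapted replicate 2.

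NT5E was also set against ADA and ADK, which remove adenosine, as a ratio within each sample. NT5E relative to ADA was 4.01, 4.30 and 3.73 in FPKM in the parental samples and 1.89, 1.91 and 1.66 in the adapted samples. Adapted replicate 1, which was higher in both genes, did not stand apart in their ratio. NT5E relative to ADK was 1.44, 1.47 and 1.56 and then 1.13, 0.659 and 0.691, so the parental samples held more NT5E than ADK while 2 of the 3 adapted samples held less. Relative to ADA and ADK together, the log2 ratio was 0.12 ± 0.03 in parental and -0.86 ± 0.31 in adapted cells. With ALPP and ALPG, which can also release adenosine from AMP, added to NT5E, a sum chosen after the values were seen, the direction turned. That log2 ratio was 0.20 ± 0.03 in parental and 0.80 ± 0.17 in adapted cells. The turn follows from adding ALPP, whose rise, like the fall of NT5E, was used in the choice of the genes. No direction of adenosine formation is read from these ratios. The ratio of ADA to ADK overlapped between the groups. These are ratios of transcripts, which do not weigh how well each enzyme cleaves AMP, and no enzyme activity or adenosine level was analysed here.

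**Figure D3:**
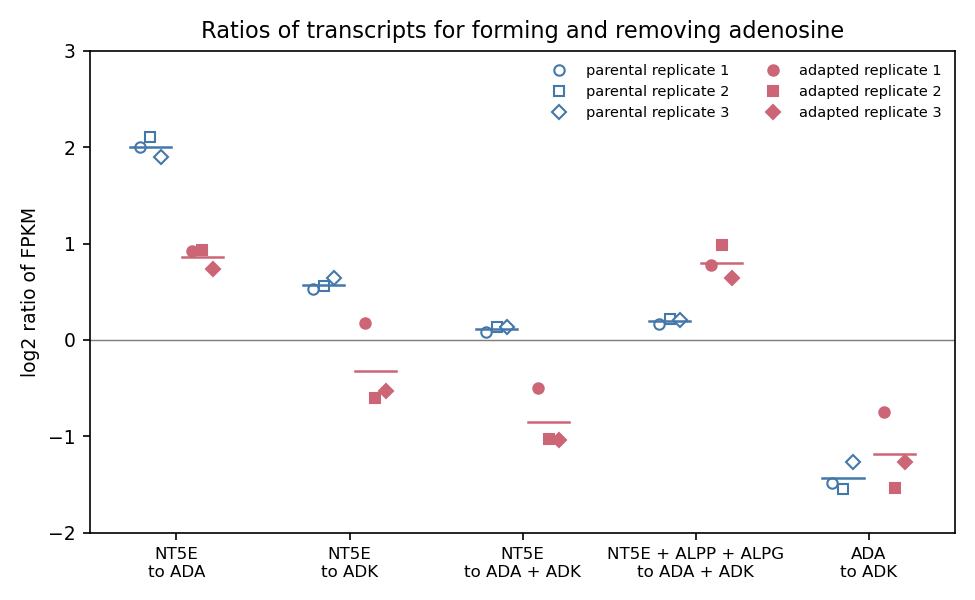
log2 ratio of FPKM for NT5E to ADA, NT5E to ADK, NT5E to ADA plus ADK, NT5E with ALPP and ALPG to ADA plus ADK, and ADA to ADK in each sample (open blue parental, filled red adapted, bars at the means, grey line where both sides are equal). The first 3 ratios are lower in all adapted samples, by 0.97 on the log2 scale for NT5E to ADA plus ADK, the fourth is higher in all adapted samples, by 0.61, and the last overlaps.

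Of the 10 members, 7 passed the filter (a mean of at least 1 over the 6 samples), and all 7 had a mean of at least 1 in both groups. ALPL, ENPP1 and ENTPD3 did not pass it. With limma over all tested rows, 3 of the 7 were past an adjusted p of 0.05 in the higher direction, against 30.7% of all tested rows, 3 in the lower direction, against 26.2%, and ADA was not past it. In 9 of the 10 members the groups stayed apart, against 66.3% of tested rows, with 5 higher (35.7% of tested rows) and 4 lower (30.6%). The 9 include ALPL, ENPP1 and ENTPD3, which were not tested, while the shares are of tested rows alone. Of the 7 tested members, ADA was the only one that overlapped. Nothing is read from these counts, since the comparison itself was used in the choice of the genes. The median log2 difference of the 7 was -0.03, beside 0.03 over all tested rows.

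Around the members, lists of further genes of extracellular nucleotide breakdown, adenosine and P2 receptors, nucleoside transport, purine salvage, phosphate handling and GPI anchoring were compared between the groups. Of 103 such genes, 66 were tested, of which 24 rose and 23 fell (limma, adjusted p under 0.05). Of all tested rows 30.7% rose and 26.2% fell, 56.9% in either direction, and the counts of each list below stand beside these shares. The median log2 difference over the 66 was 0.04. Of the 66, NT5M and GJA1 reached a mean of 1 in adapted cells alone and ADORA2A in parental cells alone, so these 3 had to differ to be tested, and their values are a description.

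Among 17 other ecto-nucleotide hydrolases and their relatives, 7 were tested, 3 rose and 2 fell. ENPP5, a relative of ENPP4, rose from 2.48 ± 0.03 to 3.42 ± 0.54 (log2, SD, n = 3 each, limma, adjusted p = 0.0125), and ENTPD4, a Golgi and lysosomal nucleotidase, rose by 0.38 (adjusted p = 0.00374). ACP3, a transmembrane and secreted acid phosphatase that also cleaves AMP, fell from 2.60 ± 0.02 to 1.61 ± 0.19 (limma, adjusted p = 2.35e-04). CANT1 rose by 0.20 and ENTPD6 fell by 0.17, and both calls were lost when any 1 of the parental samples was left out. The CANT1 call was also lost without adapted replicate 2 or 3 and the ENTPD6 call without adapted replicate 1 or 3. ENTPD1 (CD39), which acts before NT5E and was named after its values were seen, was too low to be tested, at 0.32, 0.30 and 0.30 in parental and 0.61, 0.68 and 0.62 in adapted samples.

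Of 12 genes of adenosine receptors, nucleoside transporters and adenosine deaminase partners, 8 were tested, 3 rose and 3 fell. ADORA2A, a high-affinity receptor that also raises cAMP, went from 3.09 ± 0.08 to 0.84 ± 0.47 (log2), in the same direction as ADORA2B. The other adenosine receptors were named after their values were seen. ADORA1 was 1.32 ± 0.19 and then 1.12 ± 0.04 (limma, adjusted p = 0.156), and ADORA3 was at most 0.03 in every sample. DPP4 (CD26), the surface peptidase that holds ADA at the membrane, fell from 4.74 ± 0.05 to 2.47 ± 0.30 (limma, adjusted p = 2.39e-05). The equilibrative nucleoside transporters divided, with SLC29A3 higher by 1.41 (adjusted p = 2.16e-04), SLC29A2 by 0.38 and SLC29A1 by 0.33, while SLC29A4 fell by 0.39. Leaving out parental replicate 1 or 2 ended the calls of SLC29A1 and SLC29A4, as did leaving out adapted replicate 3 for SLC29A1 and adapted replicate 2 for SLC29A4.

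Inside the cell, 23 of 28 enzymes of AMP, adenosine and purine salvage were tested, and 13 fell while 3 rose. XDH, which oxidizes hypoxanthine and xanthine to urate, went from 4.36, 4.43 and 4.41 in the parental to 1.37, 1.33 and 1.48 in the adapted samples (log2 difference -3.01, SE 0.07, limma, adjusted p = 5.52e-07). HPRT1, which salvages hypoxanthine and guanine, fell by 0.99 (adjusted p = 7.51e-04) and MTAP, which splits methylthioadenosine, by 0.86 (adjusted p = 8.38e-05). IMPDH1, of guanine nucleotide synthesis, rose by 0.50 (adjusted p = 0.00213) and AK3, a mitochondrial adenylate kinase, by 0.34 (adjusted p = 0.009). NT5M, a mitochondrial nucleotidase, was 0.92 in parental and 1.34 in adapted cells, with a call lost when any 1 of the parental samples was left out and with the replicate block. PNP, which acts on the inosine made by ADA and was named after its values were seen, was 5.86 in adapted replicate 1, within the parental range, and 5.07 and 4.87 in adapted replicates 2 and 3 (adjusted p = 0.0515).

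Receptors and channels for ATP itself were mostly silent or low, and 9 of 24 were tested, of which 6 rose and 2 fell. P2RY6, the UDP receptor, fell from 3.95 ± 0.07 to 1.23 ± 0.52 (log2, limma, adjusted p = 9.15e-05) and P2RX5 by 1.61 (adjusted p = 0.00192). P2RY11, an ATP receptor, rose by 0.85 (adjusted p = 0.00363) and P2RY2, a receptor for ATP and UTP, by 0.85 (adjusted p = 0.00784). GJA1 (connexin 43), a channel protein through which ATP can leave cells, was 0.97 in parental and 1.92 in adapted cells. Of 13 genes of phosphate and pyrophosphate handling, 11 were tested, 4 rose and 3 fell. SLC34A2, the sodium phosphate cotransporter of alveolar type II cells, rose from 3.07 ± 0.02 to 5.32 ± 0.37 (limma, adjusted p = 5.12e-05), ABCC6, a transporter through which ATP leaves cells, by 0.88, and SLC20A2, a phosphate importer, by 0.70. PPA2 fell by 0.52, SLC20A1 by 0.34 and PPA1 by 0.25. Leaving out any 1 of the parental samples ended the PPA2 call, and leaving out parental replicate 1 ended the PPA1 call.

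**Figure D4:**
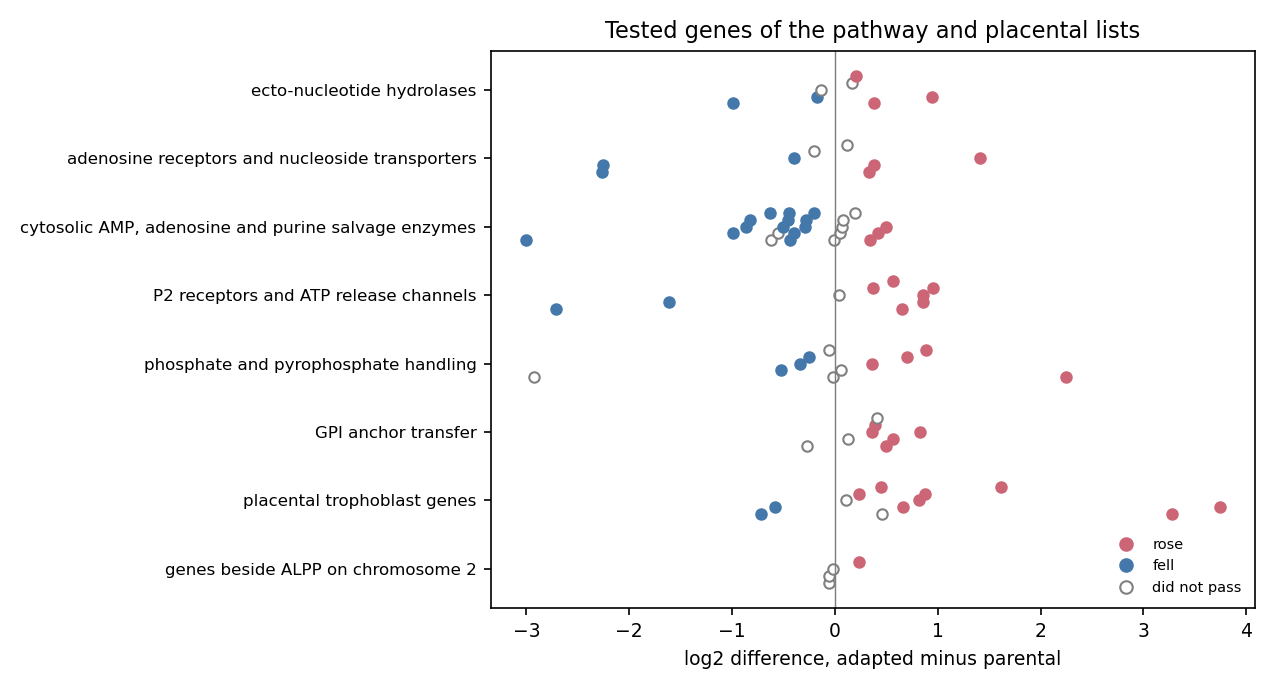
log2 difference (adapted minus parental) of every tested gene in the pathway lists, the placental list and the list of genes beside ALPP, with filled red for genes that rose, filled blue for genes that fell and open grey for those past no threshold (limma, adjusted p of 0.05). XDH at -3.01, P2RY6 at -2.72, DPP4 at -2.26 and ADORA2A at -2.25 are far to the left among those that fell, and VGLL1 at 3.74, PSG5 at 3.27 and SLC34A2 at 2.25 to the right among those that rose. VGLL1, PSG5, CGB8, GATA3, NT5M and GJA1 reached the mean needed for testing in adapted cells alone, and ADORA2A and PLAC1 in parental cells alone. These genes had to differ to be tested, so their points are a description. The open point at -2.93 is SPP1, whose groups overlap.

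Genes whose 6 values were nearest to those of ALPP, each set against its own parental mean, were THBS1 (root mean square distance 0.30 on the log2 scale), FSTL3 (0.36), PMEPA1 (0.38), VIM (0.41) and TRIM22 (0.52), among 7564 genes with a name and a log2 mean of 3 or more. For NT5E they were FAH (0.05), CENPI (0.05), CDCA7 (0.05), KPNA2 (0.06) and CHEK1 (0.07). The nearest genes lay closer to NT5E than to ALPP, but ALPP changed more (3.89 against -1.14), so the distances are not on equal terms. THBS1, FSTL3, PMEPA1 and TRIM22 had parental means below 3 (2.14, 1.77, 2.17 and 1.52). They reached the mean of 3 through their adapted values, so they had to be higher in adapted cells. CENPI (2.75 in adapted cells) reached it through its parental values. In all 5 genes nearest to NT5E, adapted replicate 1 was also the adapted sample nearest to the parental mean. That follows from the choice, since these genes were picked for their likeness to the NT5E values. The likeness describes 6 values from shared libraries and is not a test.

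**Figure D5:**
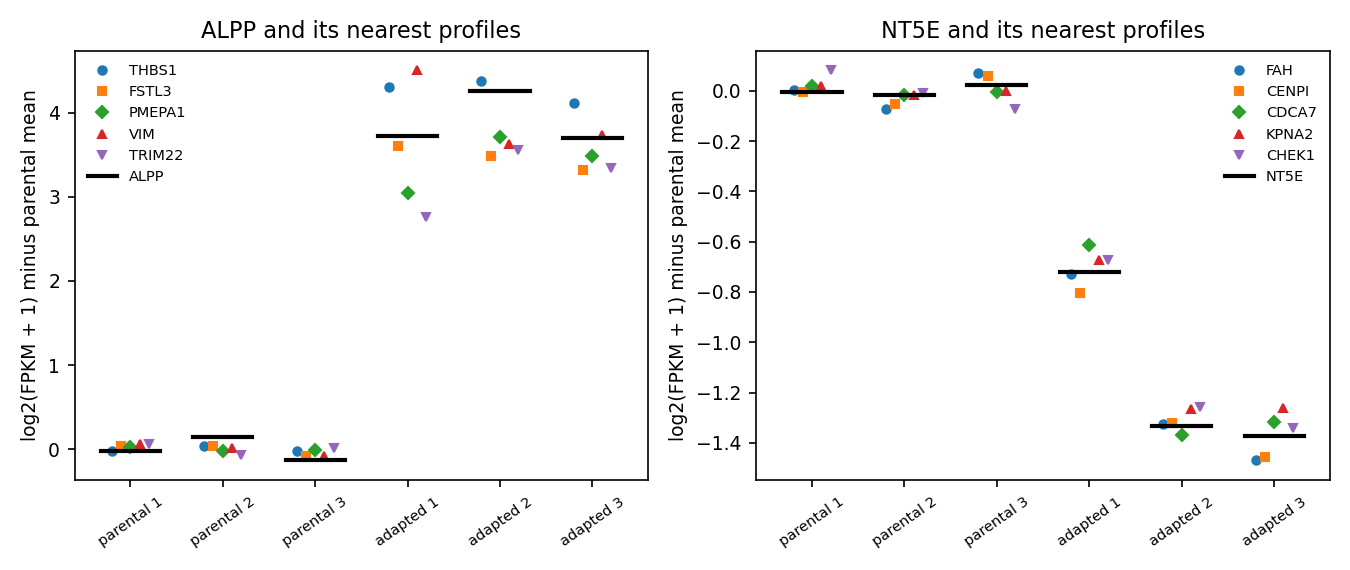
log2(FPKM + 1) minus the parental mean in each of the 6 samples for ALPP (left) and NT5E (right), as black bars, and for the 5 genes with the nearest values, as coloured symbols. The genes nearest to NT5E lie within a distance of 0.07 and those nearest to ALPP within 0.52. Picked for likeness to NT5E, the former also have adapted replicate 1 less changed than adapted replicates 2 and 3.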

How the data were processed

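The authors deposited 1 table of log2 values, with 27216 rows and 1 column for each of the 6 samples, and no counts. The submitters' processing notes name hg38, Bowtie2 2.1.0, STAR and edgeR without a role for each; the quantifier and the annotation are not given in the sources used here. The unit was taken as log2(FPKM + 1) from the values, because in 27069 rows the back-transformed values fell on a grid of 6 decimals (within 0.01 of the last decimal). In the other 147 rows values were off this grid. None of the 10 genes, and none of the 177 list genes, is among these.

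Columns named for DMSO and Osi were matched to the labels by group and replicate number. DESeq2 was not used, since no counts are in the table. The log2 values were fitted with limma 3.58.1 (R 4.3.3), with a trended eBayes prior, two-sided tests and no replicate block, on the 12656 rows with a mean of at least 1, with Benjamini-Hochberg adjustment over all of them and a threshold of 0.05. The labels do not say that replicates were separate cultures, so p-values measure the spread between these samples, which may be technical. Log2 differences on this scale understate the change of low genes. In data simulated for this comparison, with 200 of 12656 rows changed by a log2 change of 1, 88.5% were recovered and 4.32% of calls were unchanged rows. With a log2 change of 0.5, these were 46.5% and 7%, so smaller changes were often missed in the simulation. In the data 7202 rows (56.9%) were called, far more than were changed there, so these rates need not hold for the data.

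The members and gene lists were chosen with earlier results of these data known. Named genes are all 10 members, from each list the largest rises and the largest falls (at most 3 each) among called genes whose groups did not overlap, the tested genes beside ALPP, and the 5 nearest in values to ALPP and to NT5E; exceptions are marked in the text. Lists were written by hand. They cover ecto-nucleotide hydrolases, adenosine receptors and transporters, purine salvage, P2 receptors and ATP release, phosphate handling, GPI anchor transfer, placental genes, genes beside ALPP, and epithelial, fibroblast, endothelial and leukocyte markers. All 177 list genes matched a row, by current or older symbol. Gene positions and transcripts are from GENCODE v29 (GRCh38), and promoter windows from RefSeq (GRCh38.p14), where 9 of the 10 members matched and ENPP4 did not; alignments used biopython 1.88. Alternatives were another pseudocount, filter, scaling or eBayes setting, the replicate block, leaving out each sample, and leaving out the off-grid or NewGene_ rows.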

Additional observations from a re-analysis of the deposited data

How the results depend on the processing

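Depth is unknown, so low members (ALPL, ENPP1, ENTPD3) carry a counting error that cannot be given, and 3 samples a group allow no exact permutation p below 0.1 for any one value.

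The number of rows past the threshold, 7202, was within 1.5 times of this under every alternative run except the stricter filter (4532 of 7693 rows, fewer being tested), and it ranged from 5763 to 8370 across the 6 fits that each left out 1 sample. The share of calls that were higher stayed between 51.1% and 55.1%. Of the members, 6 of 7 tested were past the threshold in each of those 6 fits, beside 5763 to 8370 of 12656 rows. Without a filter 9 of 10 were, beside 8759 of 23902 rows, and these 9 include the low genes ALPL, ENPP1 and ENTPD3. With the stricter filter 4 of 5 tested were, beside 4532 of 7693 rows. Nothing is read from these member counts, since the comparison itself was used in the choice of the genes. Of the 66 tested pathway genes, 47 were past the threshold, and 38 to 52 with 1 sample left out. The replicate numbers did not pair the samples (correlations of same-numbered deviations -0.05, -0.03 and -0.02), and with the replicate block 6761 rows were called and 5 of the 43 named list genes lost their call.

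Of those 43 genes, 34 had their call under every alternative that tested them and none changed sign. The others were CANT1, ENTPD6, SLC29A1, SLC29A4, NT5M, PPA1, PPA2, EIF4E2 and KRT8, and the cause was not tested. All 43 were picked as called genes without overlap in the fit to all samples, so kept signs and calls follow in part from the choice. Of the 34, ADORA2A, GJA1, PSG5, VGLL1 and PLAC1 also had to differ to be tested. With a pseudocount of 0.1 the log2 difference was 4.42 for ALPP, 2.81 for ALPG, -2.72 for ALPL, 1.53 for ENPP1 and 1.90 for ENTPD3, as a smaller pseudocount widens the differences of low genes. The number of members that were higher stayed at 5, or 6 where ADA changed sign. The rise in the ALPP share of alkaline phosphatase FPKM, 33.6 percentage points, ranged from 32.2 to 35.4 with 1 sample left out, and the log2 difference in NT5E relative to ADA plus ADK, -0.97, from -1.15 to -0.88. With ALPP and ALPG added to NT5E, an alternative chosen after seeing the data, it turned to 0.61, by the construction of the sum.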

Other observations

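ALPP and ALPG are known from the placenta and germ cells, and a list of 33 other placental trophoblast genes moved in both directions, with 10 of the 12 tested higher in adapted cells. Of the 33, 12 were tested, 8 rose and 2 fell (limma, adjusted p under 0.05), against 30.7% and 26.2% of all tested rows. Their median log2 difference was 0.56, beside 0.03 over all tested rows. PSG5, VGLL1, CGB8 and GATA3, which are 4 of the 8 that rose, reached a mean of 1 in adapted cells alone, and PLAC1, 1 of the 2 that fell, in parental cells alone. These 5 had to differ to be tested, so the counts and the median are a description. VGLL1, a cofactor of TEAD transcription factors, was 0.32 ± 0.01 in parental and 4.07 ± 0.62 in adapted cells (log2, SD, n = 3 each). PSG5, a pregnancy-specific glycoprotein, was 0.02, 0.09 and 0.03 in the parental and 1.90, 4.07 and 3.99 in the adapted samples, with adapted replicate 1 again nearest to the parental samples. PEG10, an imprinted retrotransposon-derived gene, rose from 3.15 ± 0.11 to 4.76 ± 0.56 (limma, adjusted p = 0.00135), and GATA2, a transcription factor, fell by 0.58 (adjusted p = 0.00197). PLAC1 was 1.49 in parental and 0.77 in adapted cells. In all, 9 genes of this list are listed at 0 in all 6 samples, among them CGA, the hormone subunit, and ERVFRD-1, a syncytin, both named after their values were seen.

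ALPP, ALPG, ALPL and NT5E proteins are all held at the surface by a GPI anchor. Of 9 genes of GPI anchor transfer and remodelling, 8 were tested, 5 rose and none fell, against 30.7% and 26.2% of all tested rows. PGAP3, which remodels the anchor lipid, rose from 3.04 ± 0.02 to 3.87 ± 0.05 (log2, limma, adjusted p = 4.58e-05). PIGS and PIGT, subunits of the transamidase that attaches the anchor, rose by 0.56 (adjusted p = 2.52e-04) and 0.49 (adjusted p = 0.00387). The median log2 difference of the 8 was 0.40, and the members differed in direction, with ALPP and ALPG higher and NT5E and ALPL lower.

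Of the epithelial markers, KRT7 rose by 1.07 on the log2 scale, KRT19 fell by 0.75, KRT18 fell by 0.57 and KRT8 fell by 0.28 (limma), the KRT8 call being lost when any 1 of the parental samples, adapted replicate 2 or adapted replicate 3 was left out. Of 7 fibroblast markers, COL1A1 was the only one tested and rose by 1.12, and the summed level of the list was 3.04 to 3.17 FPKM in parental and 8.60 to 9.33 FPKM in adapted samples. The untested markers named here were chosen after their values were seen. COL3A1 (at most 0.02 in parental, 1.37, 0.17 and 0.11 in adapted samples, log2) and LUM (0.05 and then 0.61 on average) were also higher without overlap, while COL1A2 was at most 0.04. None of 6 endothelial markers was expressed highly enough to be tested, and their summed level was 1.17 to 1.89 FPKM in parental and 1.53 to 3.51 FPKM in adapted samples. They moved in both directions. CDH5 was 0.142, 0.205 and 0.121 FPKM in the parental and 1.28, 3.22 and 2.67 FPKM in the adapted samples, and VWF, KDR and TEK were higher without overlap at lower levels. PECAM1 was 1.43, 1.63 and 0.994 FPKM and then at most 0.0756 FPKM. Of 10 leukocyte markers, CD68, which is also a lysosomal protein, was the only one tested and fell by 1.85, the summed level was 75.4 to 78.0 FPKM and then 15.7 to 30.3 FPKM, and CD3E and MS4A1 are listed at 0 in all samples. The part of these markers in the values of the 10 members was not tested.

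SPP1 (osteopontin), on the phosphate handling list and named after its values were seen, was 8.12, 8.10 and 8.10 in the parental samples, 8.20 in adapted replicate 1, and 3.88 and 3.46 in adapted replicates 2 and 3 (limma, adjusted p = 0.0581).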
